A study of Mus musculus with 8 samples.

Results

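Chromatin modifier and remodeller genes encode the enzymes and complexes that mark histones, remove or read those marks, and move nucleosomes. They were taken by gene symbol, as all genes whose name begins with Kmt, Setd or Kat (writers of histone methyl and acetyl groups), Kdm or Hdac (demethylases and deacetylases), Brd or Phf (bromodomain and PHD finger proteins), or Smarc, Chd, Arid, Baz1 or Baz2 (subunits and partners of remodelling complexes). This gave 97 of the 10060 genes measured, 76 in a table of 2 polyadenylation sites within the 3′-most exon, 78 in a table that sets an upstream exon against the 3′-most exon, and 57 in both. Kmt5a matches these names too and was left out by the rule with its result known (usage within the 3′-most exon had a log2 change of -1.20, with an adjusted p of 0.380 by edgeR and 0.0369 by DESeq2), so no count below covers it. The families held 5 Kmt, 6 Setd, 5 Kat, 14 Kdm, 10 Hdac, 7 Brd, 16 Phf, 12 Smarc, 10 Chd, 8 Arid and 4 Baz genes. A name does not settle a function: Setd3 methylates actin rather than histones, Phf5a is a subunit of the splicing factor SF3b, and Smarcal1 acts on stalled replication forks. The groups of writers, erasers, readers and remodellers counted below follow the names alone. Phf8, a demethylase with a PHD finger, is therefore counted as a reader, and Kmt2e, a chromatin reader, as a writer.

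Writers attach methyl or acetyl groups to histone tails, erasers take them off, and bromodomain and PHD finger proteins bind the modified tails and bring in further complexes. Remodellers of the SWI/SNF (BAF), ISWI and CHD classes use ATP to slide or evict nucleosomes, and BAF complexes exchange subunits as neural progenitors become neurons. Mutations in many of these genes cause intellectual disability or autism in people. Where a pre-mRNA has several cleavage and polyadenylation sites, a proximal site in the 3′-most exon shortens the 3′ untranslated region, and a site in an upstream exon can give a protein with another carboxy end.

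The data are 3′ end libraries from total brain of 8 mice at 50 days of age, 3 wild type and 5 with Cstf2 D50A, made with the QuantSeq REV kit. Cstf2 is the X-linked gene of a cleavage stimulation factor subunit, and the exchange replaces an aspartate in its RNA recognition motif. The series title links the mutation to intellectual disability, so the question is whether site choice or transcript level differs between genotypes. Wild-type animals were littermates from the same colony, which had been backcrossed to C57BL/6NCrl before it was closed, and no animal was treated. The mutation was carried through that breeding colony rather than limited to a tissue, the labels name no batch and no pairing, and whole brain pools all regions and cell types. Fewer cells of a type and less RNA per cell cannot be told apart in such samples. Replicate numbers only name the libraries, and ± is the SD over 3 wild-type and 5 mutant libraries throughout.

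Libraries held 9616953 to 17530761 reads in the first table and 7075383 to 13145966 in the second, of which the chromatin genes took 0.429 to 0.521% and 1.03 to 1.18%. The level of Cstf2 itself was 8.52 ± 0.129 log2 CPM over wild-type and 8.52 ± 0.146 over mutant libraries, which does not check a point mutation. Markers of neurons, oligodendrocytes, astrocytes and microglia were detected in every library. The summed level of the 5 astrocyte markers in the first table was 5135 to 5853 CPM in wild type and lower in every mutant, at 4464 to 4972 CPM, and that of the 4 in the second was 3888 to 5051 and 2944 to 3804 CPM. Their mean log2 CPM overlapped, at 9.25 to 9.42 in wild type and 9.07 to 9.34 in mutants in the first table. In the second it was 8.93 to 9.20 and 8.84 to 9.08. No single astrocyte marker separated the genotypes, and log2 changes were above 0 in 1 of the 5 and 2 of the 4. Cerebellar granule cell markers set mutants 1 to 4 apart. The mean of the 9 of 12 listed markers in the first table was 7.33 to 7.47 log2 CPM in wild type, 5.25 to 5.28 in mutants 1 to 4 and 7.35 in mutant 5. Among them Cbln3, secreted by granule cells, ranged from 8.18 to 8.45 log2 CPM in wild type and from 0.296 to 1.17 in mutants 1 to 4, and was 8.09 in mutant 5. The markers did not all move alike. With mutant 5 included, the log2 change in level was above 0 in 1 of the 9, with a median of -0.957. In the second table it was above 0 in 1 of 5, with a median of -0.781 (50.8% and 50.6% of all genes were above 0). Summed levels of the 8 neuron markers were 8512 to 12155 CPM in wild type and 12695 to 14628 CPM in mutants. Those of the 3 endothelial markers found were 38.0, 69.6 and 133.6 CPM in wild type 1 to 3. In mutants 1 to 5 they were 182.2, 150.2, 98.6, 188.4 and 74.2 CPM. Mutants 1, 2 and 4 were highest and wild type 3 came next, an order other than that of the granule cell markers. The part of these contents in the results below was not tested. Values are therefore given library by library, with mutant 5 apart.

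In wild-type brain the chromatin genes used the whole range of site choice within the 3′-most exon. The distal site held under 10% of the reads in 13 of 76 genes, 10 to 50% in 27, 50 to 90% in 20 and over 90% in 16, with a median of 44.5% against 52.0% over all genes. At one end stood Smarcd3, the BAF subunit BAF60C, at 0.589% distal, Phf5a at 0.599%, Kat14 at 1.06%, Smarca4 (the ATPase BRG1) at 1.88%, and Hdac5 at 2.31%. Hdac11, Setd7 and Chd5 ended almost only at the distal site, at 99.8%, 99.2% and 99.2%. Paralogs could differ widely. The class IIa deacetylases Hdac5, Hdac7, Hdac4 and Hdac9 stood at 2.31%, 52.8%, 83.6% and 95.7%, and the NuRD helicases Chd4 and Chd5 at 2.36% and 99.2%. The sites of a pair lay a median of 475 bases apart (quartiles 70.5 and 1681), against 629 over all genes, from 25 bases in Kmt2e to 14159 in Smarcad1. In 23 genes they were at most 100 bases apart and in 14 over 2000.

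Against an upstream exon, the 3′-most exon took over 90% of the wild-type reads in 35 of 76 tested chromatin genes (46.1%, against 58.8% of all genes) and under 10% in 2. The median was 87.8% against 93.8%. The 2 genes that ended mainly upstream were Brd2, a BET reader of acetylated histones, with 3.52% at the 3′-most exon, and Hdac8, an X-linked class I deacetylase, with 5.77%. A further 11 genes lay between 10 and 50%, among them Chd9 at 20.3%, Smarcc1 (BAF155) at 29.0%, Phf14 at 30.1%, Chd3 at 35.7%, Brd8 at 39.0% and Smarca4 at 42.6%. Brd3, a paralog of Brd2, stood at 92.0%. Kdm4c and Kdm4d, demethylases of the same subfamily, had too few reads to be tested, at 7 to 20 reads and 8 to 20 reads per library.

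**Figure D1:**
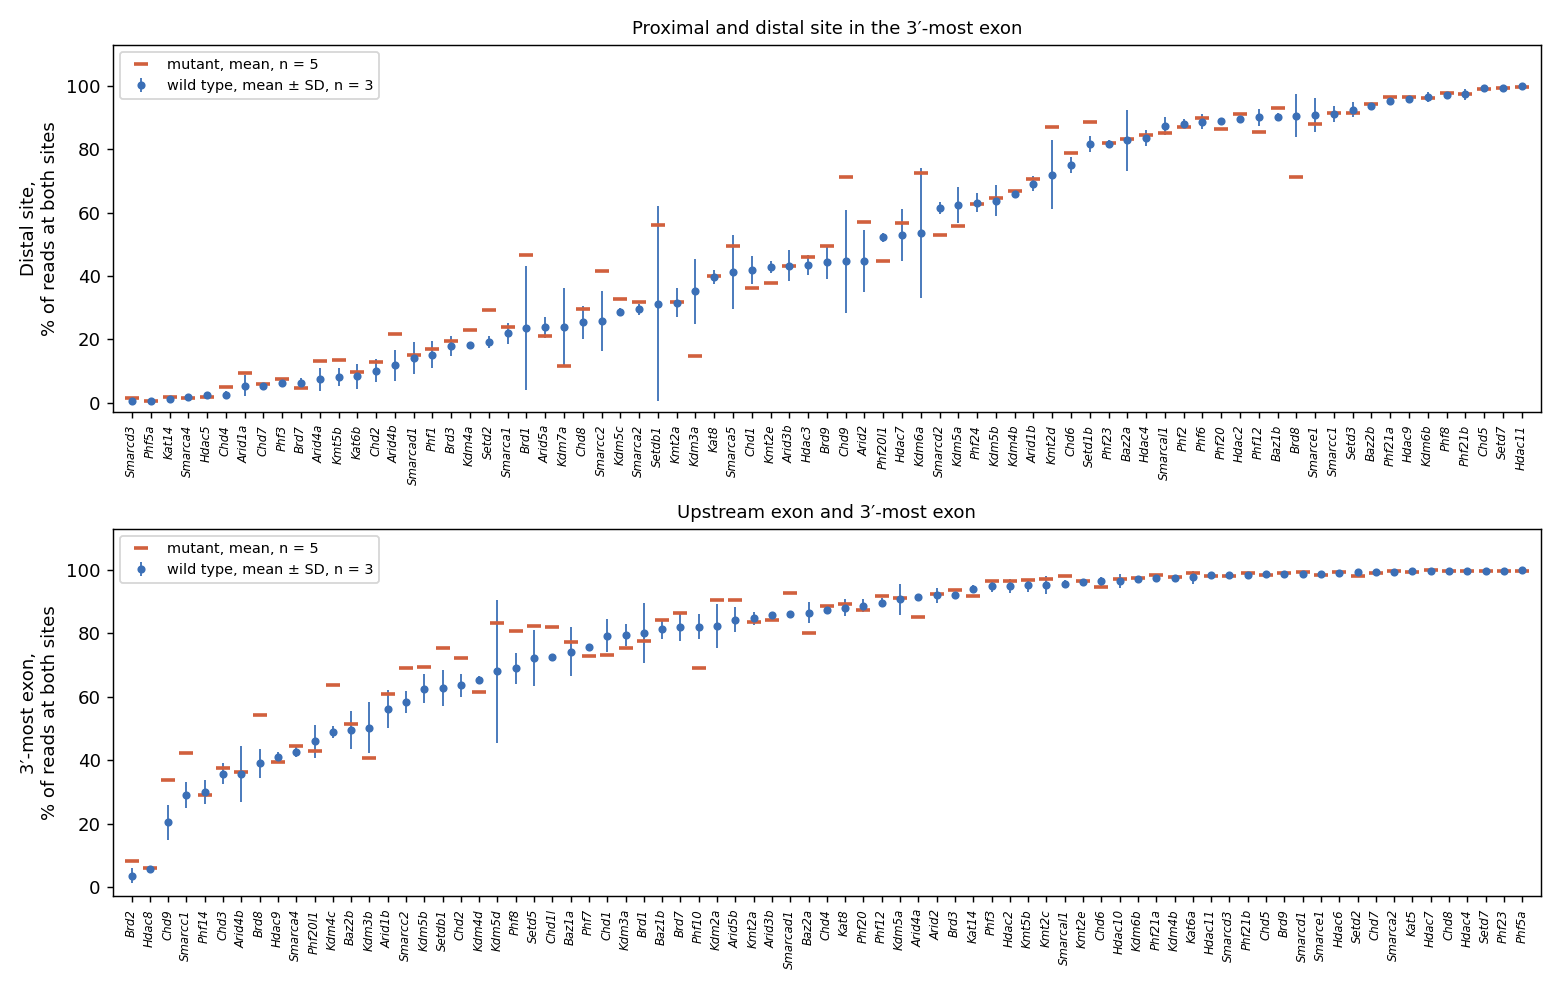
Share of reads at the distal site (top, 75 of the 76 genes) and at the 3′-most exon (bottom, 77 of 78), in percent of the reads at both sites, with genes ordered by the wild-type mean, points for wild-type means with SD (n = 3) and bars for mutant means (n = 5). Wild-type means in the top panel span nearly the whole range (of the 76 genes, 13 under 10% and 16 over 90%). In the bottom panel 35 tested genes lie above 90%.

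Within the 3′-most exon, no chromatin gene passed edgeR's quasi-likelihood test at an adjusted p of 0.05, nor did any gene in the table (0 of 7876, 0%), and DESeq2 called none of the 76 (0.19% of all genes higher and 0.0762% lower). At an unadjusted p under 0.05 the distal share was higher in mutants for 9 (8.67% of all genes) and lower for 3 (4.25%). The median log2 change of distal over proximal reads was 0.145, beside 0.115 over all genes, with quartiles of -0.21 and 0.51, and with 50 of 76 above 0 (59.2% of all) and 26 below (40.8%). Genotypes did not overlap in 4 higher (Baz1b, Kat14, Kdm4a and Kmt5b; 2.53% of all) and 0 lower (1.63%). The counts are near those of the whole table. When each site column was scaled on its own, the median over all genes moved to -0.110 and that of chromatin genes to -0.0789, with 6 higher and 9 lower, so the direction of the medians rests on the scaling. The smallest adjusted p among them was 0.380 with edgeR, and the genes below are given as values.

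Among writers, 4 of 12 were higher at an unadjusted p under 0.05 and none lower, beside 8.67% and 4.25% of all genes. Kmt2d is an MLL-family histone methyltransferase behind Kabuki syndrome, and its distal share was 63.4, 68.3 and 84.2% in wild type 1 to 3 and 91.5, 92.3, 87.1, 87.0 and 76.5% in mutants 1 to 5. All mutants but the fifth exceeded all wild types, and wild type 3 lay above mutant 5. The log2 change was 1.38 (SE 0.484). The share of Setd1b, a methyltransferase of the COMPASS type, was 78.9, 82.2 and 83.8% in wild type 1 to 3 and 90.3, 92.2, 91.6, 85.6 and 83.7% in mutants 1 to 5. Mutant 5 lay just within the wild-type range and the other mutants above it (log2 change 0.86, SE 0.299). That of Kmt5b, which methylates histone H4, was 9.15, 4.83 and 10.4% in wild type 1 to 3 and 16.7, 15.3, 13.5, 11.3 and 10.9% in mutants 1 to 5. Its genotypes did not overlap, although mutants 4 and 5 lay close to wild type 3, and the log2 change was 0.87 (SE 0.308). Kat14, a subunit of the ATAC acetyltransferase complex whose locus overlaps Pet117 in RefSeq, also separated, at low shares of 1.06 ± 0.254% in wild-type and 1.70 ± 0.385% in mutant libraries. The edgeR adjusted p was 0.380 for Kmt2d, Setd1b and Kmt5b.

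Setd2, which places the trimethyl mark on histone H3 in transcribed genes, showed another order. Its distal shares were 17.1, 19.9 and 20.7% in wild type 1 to 3 and 37.1, 38.1, 34.1, 17.7 and 19.6% in mutants 1 to 5. Mutants 1 to 3 stood above all other libraries, and mutants 4 and 5 lay within the wild-type range. Setdb1, a heterochromatin methyltransferase, varied within wild type alone, with a share of 20.7, 7.14 and 65.9% in wild type 1 to 3 and 69.0, 64.1, 39.0, 68.2 and 40% in mutants 1 to 5. It rests on 29 to 85 reads per library, and RefSeq places its locus over that of Cers2.

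Among erasers, 0 of 16 were higher and 2 were lower at an unadjusted p under 0.05 (8.67% and 4.25% of all genes). For Kdm3a, a demethylase of histone H3, the distal share was 42.1, 40 and 23.3% in wild type 1 to 3 and 5, 7.34, 12.3, 16.03 and 33.3% in mutants 1 to 5. Mutants 1 to 4 lay below every wild type and mutant 5 between wild types 2 and 3, for a log2 change of -1.83 (SE 0.643) from 33 to 131 reads per library. For Kdm7a, another demethylase, it was 31.9, 29.8 and 9.84% in wild type 1 to 3 and 7.84, 9.38, 8.51, 12.6 and 20% in mutants 1 to 5, and wild type 3 lay among the mutants (log2 change -1.22, SE 0.542). Kdm4a separated the genotypes in the other direction, at 18.3 ± 0.242% in wild-type and 22.9 ± 2.53% in mutant libraries, with mutants 3 and 5 nearest to wild type. The X-linked pair differed in spread: Kdm6a, a demethylase of the Polycomb mark, ranged over 40.9 to 82.7% and Kdm5c over 27.2 to 37.4% across all 8 libraries. None of the 7 deacetylases reached an unadjusted p of 0.05, with Hdac4 at 83.6 ± 2.57% in wild-type and 84.6 ± 2.43% in mutant libraries. Wild type and mutants were at 89.6 ± 0.290% and 91.0 ± 2.88% for Hdac2 and at 99.8 ± 0.0781% and 99.7 ± 0.0855% for Hdac11. Adjusted p was 0.380 for Kdm3a and 0.381 for Kdm7a by edgeR.

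Among readers, 1 of 19 passed an unadjusted p of 0.05, and it was lower (8.67% of all genes were higher at this p and 4.25% lower). For Brd8, a bromodomain subunit of the TIP60 acetyltransferase complex, the distal share was 91.2, 97.1 and 83.5% in wild type 1 to 3 and 61.0, 66.3, 79.5, 60.1 and 89.6% in mutants 1 to 5. Mutants 1 to 4 lay below all wild types and mutant 5 lay among them. The log2 change was -2.04 (SE 0.694), with an adjusted p of 0.380 by edgeR. RefSeq places the Brd8 locus over that of Kif20a, and reads of both genes cannot be told apart here. Brd1, a scaffold of acetyltransferase complexes, had the largest SD over all 8 libraries among the 19 readers, with a share of 15.3, 9.28 and 45.7% in wild type 1 to 3 and 73.0, 57.4, 25.4, 69.1 and 8.28% in mutants 1 to 5. Mutants 1, 2 and 4 were high, wild type 3 was between, and mutant 5 was the lowest of all. No PHD finger gene reached an unadjusted p of 0.05. Phf12, which works with the Sin3 deacetylase complex, stood at 90.02 ± 2.54% in wild-type and 85.4 ± 3.48% in mutant libraries (log2 change -0.66, SE 0.328, edgeR adjusted p 0.405) and Phf20, a reader in the MOF acetyltransferase complex, at 88.9 ± 0.777% in wild-type and 86.2 ± 1.63% in mutant libraries (log2 change -0.34, SE 0.206, edgeR adjusted p 0.450), and in both the genotypes overlapped. Over the 13 PHD finger genes the median log2 change was -0.0313.

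Among remodellers, 5 of 29 were higher at an unadjusted p under 0.05 and none lower (8.67% and 4.25% of all genes). The 5 were Arid2, Baz1b and the 3 below. Chd9, a CHD helicase, had the smallest p of all 76 genes. Its distal shares were 35.9, 34.4 and 63.4% in wild type 1 to 3 and 78.5, 82.0, 70.9, 64.9 and 60.0% in mutants 1 to 5, so that only wild type 3 reached the mutants, and the log2 change was 1.67 (SE 0.505) on 40 to 154 reads per library. The share of Smarcc2 (BAF170) was 21.9, 18.9 and 36.6% in wild type 1 to 3 and 50.3, 44.6, 31.3, 51.1 and 31.1% in mutants 1 to 5, and wild type 3 again lay among the mutants (log2 change 1.05, SE 0.416). Smarcd3 used its distal site rarely in all libraries, at 0.458, 0.510 and 0.797% in wild type 1 to 3 and 2.01, 1.94, 2.03, 0.921 and 0.617% in mutants 1 to 5. Mutants 1 to 3 had more than any other library while mutant 5 lay within wild type, and the log2 change was 1.31 (SE 0.430). Its locus overlaps Chpf2 in RefSeq. The share of its paralog Smarcd2 was 63.3, 61.3 and 59.5% in wild type 1 to 3 and 48.0, 47.7, 46.6, 60.3 and 62.7% in mutants 1 to 5, with mutants 1 to 3 below the remaining libraries (log2 change -0.48, SE 0.258). Baz1b, a partner of ISWI, separated the genotypes narrowly at 90.2 ± 1.04% in wild-type and 93.0 ± 1.45% in mutant libraries. By edgeR, adjusted p was 0.380 for Chd9, Smarcc2 and Smarcd3 and 0.418 for Smarcd2.

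**Figure D2:**
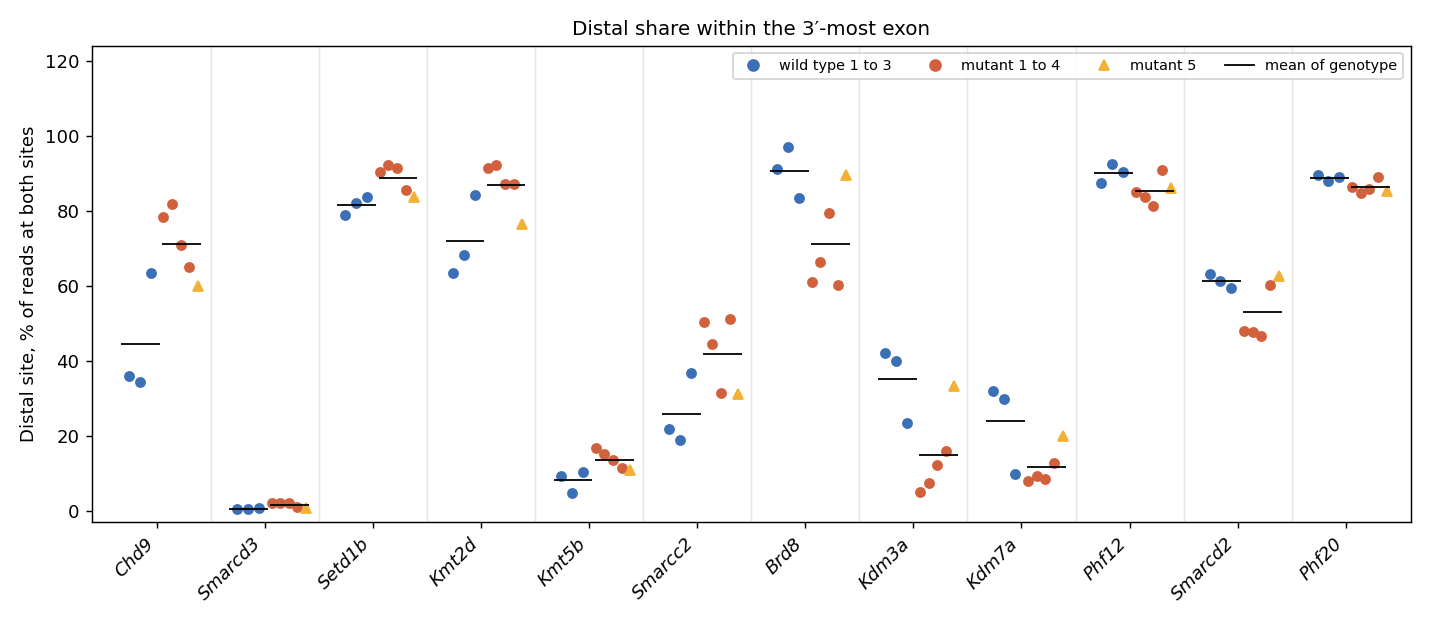
Percent of reads at the distal site in each library for the 6 chromatin genes per direction with the smallest p and a mean of at least 50 reads, with blue circles for wild type, red circles for mutants 1 to 4, a triangle for mutant 5 and lines for means. For Brd8 and Kdm3a mutants 1 to 4 lie below all wild types, at most 79.5% and 16.03%, while mutant 5 lies at 89.6% and 33.3%.

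The number of these genes at an unadjusted p under 0.05 moved with single libraries. It was 5 higher without wild type 1, 3 without wild type 2, 5 without mutant 2 and 15 without mutant 5, and the number lower was 0 without wild type 2 and 5 without wild type 3. In both directions together, 15.8% of the chromatin genes and 12.9% of all genes were at this p with every library, 3.95% and 3.80% without wild type 2, 21.1% and 24.4% without wild type 3, and 25% and 27.7% without mutant 5. These shares were 9.21% and 5.33% without wild type 1 and 9.21% and 6.73% without mutant 2. Mutants 1 to 4 all lay above every wild type and mutant 5 in 7 of the 76 genes (9.21%, against 10.7% of all) and below them in 3 (3.95% against 5.33%). The order is that of the granule cell markers, whose part in the result was not tested. The first 7 were Chd9, Kdm4a, Kmt2d, Kmt5b, Setd1b, Smarca2 and Smarcd3, and the other 3 were Brd8, Kdm3a and Phf20l1. Mutant 5 lay within the range of the wild types in 55.3% of the 76 genes (62.9% of all) and mutant 1 in 27.6% (32.3% of all). Where the sites were at most 100 bases apart, 19 of 23 chromatin genes had a log2 change above 0 (82.6%, against 67.6% of all genes at that distance), and where they were over 2000 apart 6 of 14 did (42.9% against 57.0%). Both counts depend on the scaling. With each site column scaled on its own, the median over all genes moved from 0.115 to -0.110.

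Between exons, edgeR again called none of the 76 tested chromatin genes and none of all 6001 (0%), and DESeq2 called none of the 76 (0.0667% of all higher, 0.0167% lower). The share of the 3′-most exon was higher in mutants for 14 at an unadjusted p under 0.05 (18.4% of them, beside 10.4% of all genes) and lower for 4 (5.26% beside 3.63%). Genotypes did not overlap in 7 higher (Arid5b, Chd2, Hdac7, Phf8, Setdb1, Smarcad1 and Smarcd1; 4.23% of all) and 2 lower (1.65%). The median log2 change was 0.168, beside 0.169 over all genes (quartiles -0.18 and 0.72), and 50 of 76 lay above 0 (62.2% of all) and 26 below (37.8%). With each site column scaled on its own the numbers were 11 and 6, and the median over all genes was 0.0734. The smallest adjusted p was 0.282 with edgeR.

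Among writers, 2 of 12 were higher and 1 lower at an unadjusted p under 0.05, beside 10.4% and 3.63% of all genes. For Setd5, an intellectual disability gene with a SET domain, the share of the 3′-most exon was 62.4, 74.97 and 79.5% in wild type 1 to 3 and 84.7, 84.6, 81.4, 82.7 and 78.5% in mutants 1 to 5. Wild type 3 lay within the mutants, above mutant 5, and the log2 change was 0.81 (SE 0.292). Setdb1 separated the genotypes at 62.8 ± 5.79% in wild-type and 75.3 ± 3.73% in mutant libraries, from 48 to 112 reads per library. Setd2 ended at the 3′-most exon in nearly all reads, at 99.2 ± 0.568% in wild-type and 98.1 ± 1.15% in mutant libraries (log2 change -1.43, SE 0.603), and mutant 3 was lowest at 96.1%. Kat14 stood at 94.1 ± 1.24% in wild-type and 91.7 ± 1.68% in mutant libraries (log2 change -0.55, SE 0.271), with overlap. In the MLL family none passed an unadjusted p of 0.05: wild type and mutants stood at 84.8 ± 2.14% and 83.5 ± 2.16% for Kmt2a, 95.3 ± 2.72% and 97.3 ± 1.63% for Kmt2c, and 96.2 ± 0.501% and 96.4 ± 0.633% for Kmt2e. Adjusted p by edgeR was 0.301 for Setd5, 0.315 for Setd2 and 0.378 for Kat14.

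Among erasers, 2 of 16 passed an unadjusted p of 0.05, both higher (10.4% of all genes were higher at this p and 3.63% lower). Kdm2a, a demethylase recruited to CpG islands, stood at 82.4 ± 6.98% in wild-type and 90.5 ± 3.15% in mutant libraries, and the genotypes overlapped. Hdac7 ended at the 3′-most exon in over 99% of reads in every library, at 99.7 ± 0.0764% in wild-type and 99.9 ± 0.0545% in mutant libraries, and its separation rests on few upstream reads. Hdac8 was the opposite case, with a share of 4.96, 6.12 and 6.23% in wild type 1 to 3 and 5.78, 4.60, 5.39, 6.71 and 7.46% in mutants 1 to 5. It held 13198 to 32676 reads per library, and the genotypes overlapped. The Y-linked Kdm5d had 7 to 33 reads per library, and reads in all 8.

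Among readers, 3 of 19 were higher and 1 lower at an unadjusted p under 0.05 (10.4% and 3.63% of all genes). Phf8, an X-linked demethylase with a PHD finger that is mutated in intellectual disability, gave the smallest p among the chromatin genes in this comparison. Its shares were 67.0, 65.4 and 74.6% in wild type 1 to 3 and 82.3, 83.3, 79.4, 80.4 and 78.6% in mutants 1 to 5. The genotypes did not overlap, and the log2 change was 0.91 (SE 0.261) with an adjusted p of 0.282 by edgeR. The share of Brd8 was 38.6, 34.7 and 43.8% in wild type 1 to 3 and 56.9, 55.5, 52.5, 64.3 and 42.7% in mutants 1 to 5. Mutants 1 to 4 lay above every wild type and mutant 5 among them, the reverse of its distal share (log2 change 0.91, SE 0.293, edgeR adjusted p 0.282). Reads at the last exon are shared by the 2 tables. The share of Brd2, which ended mainly upstream, was 2.34, 1.92 and 6.31% in wild type 1 to 3 and 12.01, 9.07, 4.70, 11.2 and 3.41% in mutants 1 to 5. Mutants 1, 2 and 4 were the 3 highest and mutants 3 and 5 lay within wild type, and the locus overlaps H2-DMa in RefSeq. Phf10, a subunit of the PBAF complex, was lower, at 84.2, 84.8 and 77.5% in wild type 1 to 3 and 59.0, 60.4, 71.9, 72.3 and 82.4% in mutants 1 to 5. Mutant 5 lay within wild type and mutants 1 to 4 below it, and the log2 change was -1.02 (SE 0.369) with an adjusted p of 0.301 by edgeR. Its locus overlaps 1600012H06Rik.

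Among remodellers, 7 of 29 were higher at an unadjusted p under 0.05 and 2 lower (10.4% and 3.63% of all genes). Of the 7, 5 were among the 9 tested Smarc genes. The median log2 change of the 9 was 0.825 beside 0.169 over all genes. Within the 3′-most exon 2 of 11 Smarc genes were higher (8.67% of all), with a median of 0.0564 beside 0.115. The share of Smarcad1, a SWI/SNF-like ATPase of heterochromatin, was 85.0, 86.2 and 87.0% in wild type 1 to 3 and 93.3, 94.9, 91.8, 94.9 and 89.7% in mutants 1 to 5. All mutants exceeded all wild types, mutant 5 by the least, and the log2 change was 1.16 (SE 0.332). The share of Smarcc2 was 56.2, 56.3 and 62.4% in wild type 1 to 3 and 75.2, 69.5, 66.1, 76.7 and 58.6% in mutants 1 to 5, and mutants 1 to 4 lay above the rest. That of Smarcc1, its partner in BAF complexes, was 29.9, 24.5 and 32.6% in wild type 1 to 3 and 50.7, 52.3, 48.5, 31.1 and 28.5% in mutants 1 to 5. Here mutants 1 to 3 lay above the rest and mutants 4 and 5 within wild type. Smarcal1 and Smarcd1 (BAF60A) ended nearly always at the 3′-most exon, at 95.8 ± 1.12% in wild-type and 98.2 ± 1.05% in mutant libraries for the first (log2 change 1.27, SE 0.430) and 98.6 ± 0.365% in wild-type and 99.4 ± 0.258% in mutant libraries for the second (log2 change 1.04, SE 0.381). Smarcd1 separated without overlap, and the differences in both genes rest on few upstream reads. The edgeR adjusted p was 0.282 for Smarcad1 and Smarcal1 and 0.301 for Smarcd1.

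The share of Chd2, mutated in epileptic encephalopathy, was 59.6, 66.3 and 64.9% in wild type 1 to 3 and 76.9, 77.2, 67.8, 72.4 and 67.2% in mutants 1 to 5. The genotypes did not overlap, by less than 1 percentage point between wild type 2 and mutant 5. For Chd9 it was 20, 14.8 and 26.1% in wild type 1 to 3 and 37.6, 39.4, 27.9, 45.8 and 18.5% in mutants 1 to 5, with mutant 5 within wild type. Arid4a and Baz2a were the 2 genes lower without overlap, at 91.6 ± 0.762% in wild-type and 85.2 ± 3.32% in mutant libraries and 86.6 ± 3.27% in wild-type and 80.0 ± 4.05% in mutant libraries, respectively. Arid4a, of the Sin3 complex, had a log2 change of -0.91 (SE 0.371), and Baz2a (TIP5), which silences ribosomal DNA, one of -0.71 (SE 0.335). Chd7 stood above 98% in every library (log2 change -1.06, SE 0.479). By edgeR, adjusted p was 0.309, 0.359 and 0.343 for Arid4a, Baz2a and Chd7.

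**Figure D3:**
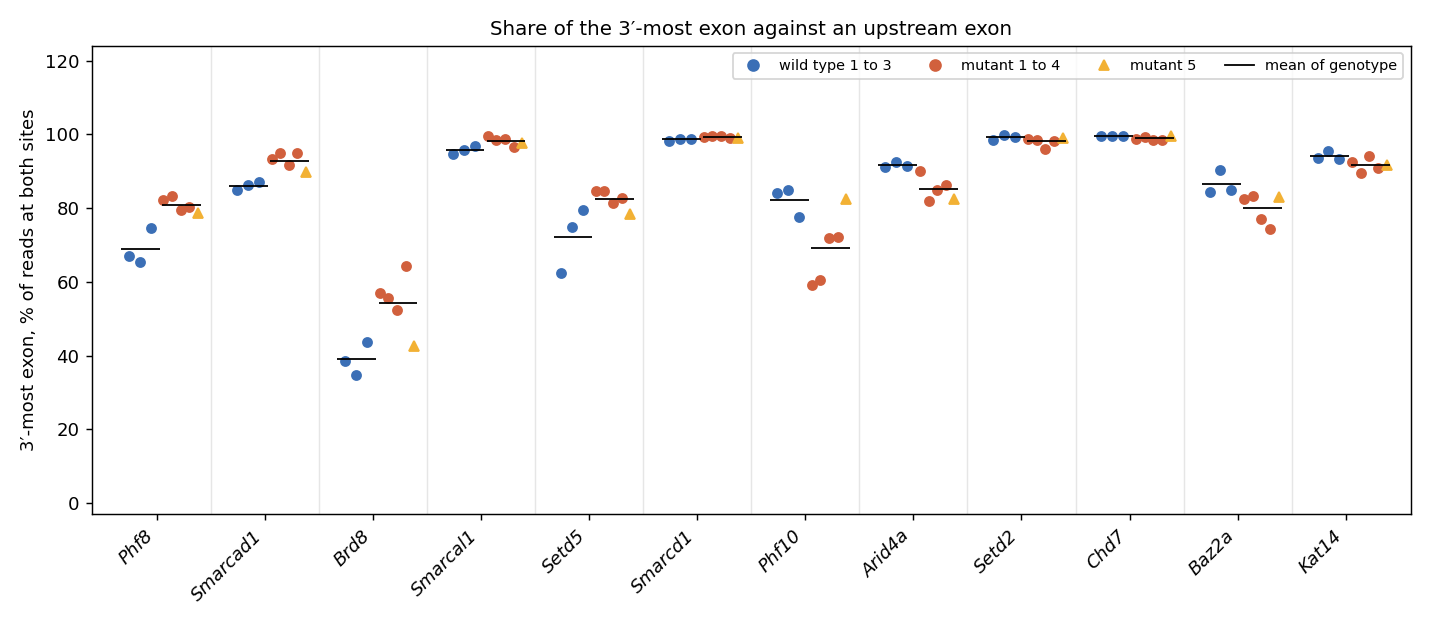
Percent of reads at the 3′-most exon, of reads there and at an upstream exon, in each library for the 6 chromatin genes per direction with the smallest p and a mean of at least 50 reads, with blue circles for wild type, red circles for mutants 1 to 4, a triangle for mutant 5 and lines for means. Phf8, Smarcad1 and Smarcd1 have all mutants above all wild types, and Arid4a and Baz2a all below, while Smarcd1, Setd2 and Chd7 stay above 96% in every library.

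Without mutant 5, edgeR called 5 chromatin genes in this comparison, Brd2, Brd8, Chd9 and Smarcad1 higher and Phf10 lower, beside 236 genes over the whole table (3.93%). The mutants left are then all low in granule cell markers, and the part of this in the calls was not tested. Without wild type 3 it called Brd2 alone, beside 161 of all genes (2.68%). At an unadjusted p under 0.05 there were 4 higher without wild type 1, 9 without mutant 1 and 8 without mutant 4, and 0 lower without wild type 2. In both directions together, 23.7% of the chromatin genes and 14.0% of all genes were at this p with every library, 9.21% and 7.70% without wild type 1, 13.3% and 7.10% without wild type 2, and 31.6% and 22.9% without mutant 5. These shares were 15.8% and 9.32% without mutant 1 and 14.7% and 10.3% without mutant 4. Mutants 1 to 4 lay above every wild type and mutant 5 in 13 of the 76 genes (17.1%, against 9.68% of all) and below in 2 (2.63% against 3.82%). The 13 were Brd3, Brd8, Chd1l, Chd2, Chd9, Kdm2a, Phf12, Phf21a, Phf8, Setd5, Setdb1, Smarcad1 and Smarcc2, and the 2 were Chd7 and Phf10.

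The level of a gene was read as the sum of its 2 sites, in log2 CPM. This scales the reads to the library total of the tested genes of that table after TMM normalization. No chromatin gene differed between genotypes in either table with edgeR at an adjusted p of 0.05 (0% of all genes in both), nor with DESeq2 (0.318% of all genes higher and 0.0127% lower in the first table, 0% in the second). The fold changes below are those of edgeR. Of the genes in the first table, 5 were higher at an unadjusted p under 0.05 (7.29% of all) and 1 lower (7.05%), and the median log2 change was 0.119 beside 0.00687. In the second, 0 were higher (7.6% of all) and 6 lower (7.47%), with a median of 0.0921 beside 0.00636. Log2 changes were above 0 in 51 of 76 (50.8% of all) and below in 25 (49.2%) in the first table, and above in 48 (50.6%) and below in 28 (49.4%) in the second. These numbers lean on wild type 1. It was the lowest wild type in 36 and 34 of the 76 genes (2604 of 7876 and 2037 of 6001 over all genes). Without it the medians of the chromatin genes were 0.0858 and 0.0240, beside -0.00337 and -0.00670 over all genes. Genotypes did not overlap in 2 higher (Arid1b and Smarcal1; 2.45% of all) and 0 lower (2.31%) in the first, and in 0 higher (2.28%) and 3 lower (Baz1a, Chd9 and Hdac8; 2.5%) in the second.

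Chd7, the CHD helicase of CHARGE syndrome, known for its part in cerebellar granule cell development, was at 6.502, 6.44 and 6.48 log2 CPM in wild type 1 to 3 and 5.29, 5.02, 5.11, 5.29 and 6.64 in mutants 1 to 5 in the first table. These were 809, 1450 and 1087 reads in the wild-type libraries and 413, 401, 433, 548 and 1109 in the mutant ones. Mutants 1 to 4 lay over 1 log2 unit below all wild types, and mutant 5 lay above every wild type. The log2 change was -0.86 (SE 0.342) in the first table and -0.87 (SE 0.335) in the second, with adjusted p of 0.343 and 0.327 by edgeR. Smarcd2, a BAF subunit, was at 7.39, 7.59 and 7.46 log2 CPM in wild type 1 to 3 and 6.53, 6.55, 6.68, 6.65 and 7.71 in mutants 1 to 5. Again mutants 1 to 4 lay below all wild types and mutant 5 above them, with a log2 change of -0.58 (SE 0.266) and an adjusted p of 0.343 by edgeR. The granule cell markers were also low in mutants 1 to 4 and at the wild-type level in mutant 5, and their part in these values was not tested. Without mutant 5, edgeR called Chd7 (log2 change -1.29, adjusted p 0.000696 in the first table, -1.30 and 0.000269 in the second) and Smarcd2 (-0.88 and 0.00843), beside 68 and 65 genes of the whole tables. Over all alternatives run the adjusted p ranged from 0.000696 to 1.00 and from 0.000269 to 1.00 for Chd7 and from 0.00843 to 1.00 for Smarcd2. With the marker mean as a covariate the log2 change was 0.191 and 0.188 for Chd7 and 0.239 for Smarcd2.

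Among writers, the log2 change in level was above 0 for all 5 Setd genes measured in the first table and all 4 in the second (50.8% and 50.6% of all genes), with medians of 0.493 and 0.442 beside 0.00687 and 0.00636 over all genes. Only 1 of the 5 and 0 of the 4 reached an unadjusted p under 0.05, and none was called. The 2 tables share last-exon reads. Brd genes were above 0 in 6 of 6 and 5 of 7, and Hdac genes in 6 of 7 and 4 of 8. Of all tested chromatin genes 67.1% and 63.2% were. Setdb1 was at 1.77, 1.42 and 1.91 log2 CPM in wild type 1 to 3 and 2.49, 2.69, 2.28, 2.63 and 1.51 in mutants 1 to 5, with mutant 5 among wild type and a log2 change of 0.70 (SE 0.284). Setd2 was at 4.57, 4.34 and 5.38 log2 CPM in wild type 1 to 3 and 5.71, 5.36, 5.06, 5.61 and 5.01 in mutants 1 to 5, and wild type 3 lay within the mutants (log2 change 0.54, SE 0.262). Kmt2d was at 4.03, 4.75 and 5.45 log2 CPM in wild type 1 to 3 and 5.89, 5.63, 5.33, 5.61 and 5.27 in mutants 1 to 5, again with wild type 3 among the mutants and wild type 1 lowest (log2 change 0.70, SE 0.282). Kat5 (TIP60), an acetyltransferase of the DNA damage response, was at 8.25, 8.13 and 7.68 log2 CPM in wild type 1 to 3 and 7.42, 7.602, 7.58, 7.39 and 8.002 in mutants 1 to 5 in the second table, with mutant 5 inside the range of wild type and a log2 change of -0.42 (SE 0.173). Adjusted p by edgeR was 0.343 for Setdb1 and Kmt2d, 0.347 for Setd2 and 0.327 for Kat5.

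Among erasers, Hdac8 was at 11.68, 11.35 and 11.10 log2 CPM in wild type 1 to 3 and 10.68, 11.09, 11.06, 10.53 and 11.03 in mutants 1 to 5. All mutants lay below all wild types, with wild type 3 and mutant 2 almost equal. The log2 change was -0.50 (SE 0.176), from 13198 to 32676 reads per library, with an adjusted p of 0.327 by edgeR. Nearly all of its reads came from the upstream end. Hdac2, the main class I deacetylase of neurons, was at 4.56 ± 0.158 log2 CPM over wild-type and 4.83 ± 0.187 over mutant libraries, with overlap. The class IIa genes Hdac4, Hdac5, Hdac7 and Hdac9 overlapped too. In wild type and mutants, Hdac4 was at 7.13 ± 0.442 and 7.28 ± 0.105 log2 CPM, Hdac5 at 6.33 ± 0.257 and 6.55 ± 0.142 log2 CPM, Hdac7 at 6.96 ± 0.271 and 7.14 ± 0.0547 log2 CPM, and Hdac9 at 4.98 ± 0.00382 and 5.04 ± 0.120 log2 CPM. Kdm3a was at 2.88, 1.96 and 3.28 log2 CPM in wild type 1 to 3 and 3.99, 3.93, 3.13, 3.90 and 2.61 in mutants 1 to 5 in the second table, and mutant 5 lay among wild type (log2 change 0.84, SE 0.383, edgeR adjusted p 0.334).

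Among readers, Brd8 was at 4.44, 4.22 and 4.49 log2 CPM in wild type 1 to 3 and 4.67, 4.8, 4.73, 5.03 and 4.44 in mutants 1 to 5 by its last-exon sites, and mutants 1 to 4 exceeded all others (log2 change 0.36, SE 0.157). With upstream reads included its level was 6.20 ± 0.0603 log2 CPM over wild-type and 6.16 ± 0.0714 over mutant libraries. Phf8 was at 4.35, 3.74 and 4.69 log2 CPM in wild type 1 to 3 and 5.08, 4.89, 4.54, 4.86 and 4.59 in mutants 1 to 5 in the first table (log2 change 0.50, SE 0.221). Brd1 was at 4.83, 4.52 and 5.33 log2 CPM in wild type 1 to 3 and 5.94, 5.86, 4.89, 6.03 and 4.82 in mutants 1 to 5 in the second table (log2 change 0.67, SE 0.321). In both, wild type 3 lay among the mutants. On the lower side Phf23 was at 7.66, 7.63 and 7.24 log2 CPM in wild type 1 to 3 and 6.90, 6.95, 7.29, 6.99 and 7.51 in mutants 1 to 5 in the first table, with log2 changes of -0.38 (SE 0.174) there and -0.38 (SE 0.168) in the second. Phf5a was at 8.59, 8.48 and 8.14 log2 CPM in wild type 1 to 3 and 7.93, 8.01, 8.20, 7.95 and 8.44 in mutants 1 to 5, with log2 changes of -0.30 (SE 0.158) and -0.30 (SE 0.156). For both genes mutant 5 and wild types 1 and 2 were the 3 highest libraries. Phf20 was at 5.78 ± 0.0914 log2 CPM over wild-type and 5.54 ± 0.146 over mutant libraries, and mutants 1 to 4 lay below the rest (log2 change -0.23, SE 0.124). The edgeR adjusted p was 0.343 for Brd8, Phf8 and Phf23 (0.330 for Phf23 in the second table), 0.341 for Brd1, 0.357 for Phf20 and 0.358 for Phf5a (0.346 in the second table).

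Among remodellers, Smarcc2 was at 3.45, 4.08 and 4.73 log2 CPM in wild type 1 to 3 and 5.37, 5.22, 4.72, 5.34 and 4.24 in mutants 1 to 5 by its last-exon sites. Wild type 3 lay inside the mutant range, and mutants 3 and 5 inside that of wild type (log2 change 0.86, SE 0.330, edgeR adjusted p 0.343). With the upstream end added its level was 6.67 ± 0.145 log2 CPM over wild-type and 6.78 ± 0.0701 over mutant libraries. Chd9 was at 5.92, 5.67 and 5.52 log2 CPM in wild type 1 to 3 and 5.21, 5.38, 5.31, 5.40 and 5.50 in mutants 1 to 5 in the second table. The genotypes did not overlap, with wild type 3 and mutant 5 almost equal (log2 change -0.34, SE 0.128, edgeR adjusted p 0.327). In the first table, which covers its last exon only, it was at 2.53 ± 0.520 log2 CPM over wild-type and 2.96 ± 0.646 over mutant libraries. Chd5, a neuronal NuRD helicase, was at 7.04, 7.88 and 7.70 log2 CPM in wild type 1 to 3 and 7.95, 7.95, 8.18, 7.73 and 7.91 in mutants 1 to 5, and wild type 1 was the lowest library (log2 change 0.37, SE 0.185). Smarcad1 was at 4.32, 3.69 and 4.79 log2 CPM in wild type 1 to 3 and 5.29, 5.17, 4.62, 5.20 and 4.02 in mutants 1 to 5, with wild type 2 lowest (log2 change 0.61, SE 0.318). Arid1b, the BAF subunit of Coffin-Siris syndrome, was at 5.07, 5.32 and 5.57 log2 CPM in wild type 1 to 3 and 5.73, 5.51, 5.56, 5.58 and 5.74 in mutants 1 to 5 in the second table (log2 change 0.29, SE 0.137). Arid5a, an ARID protein that also binds RNA, was at 3.96, 3.89 and 3.67 log2 CPM in wild type 1 to 3 and 3.14, 3.39, 3.77, 3.36 and 3.80 in mutants 1 to 5 in the first (log2 change -0.33, SE 0.183). Both overlapped. By edgeR, adjusted p was 0.346, 0.348, 0.340 and 0.366 for Chd5, Smarcad1, Arid1b and Arid5a. Baz1a, a partner of ISWI with only 16 to 44 reads per library, was at 1.91 ± 0.266 log2 CPM over wild-type and 1.23 ± 0.196 over mutant libraries, without overlap, and Smarcal1 was at 5.38 ± 0.0774 log2 CPM over wild-type and 5.55 ± 0.0430 over mutant libraries in the first table. Both were named after their values were seen.

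**Figure D4:**
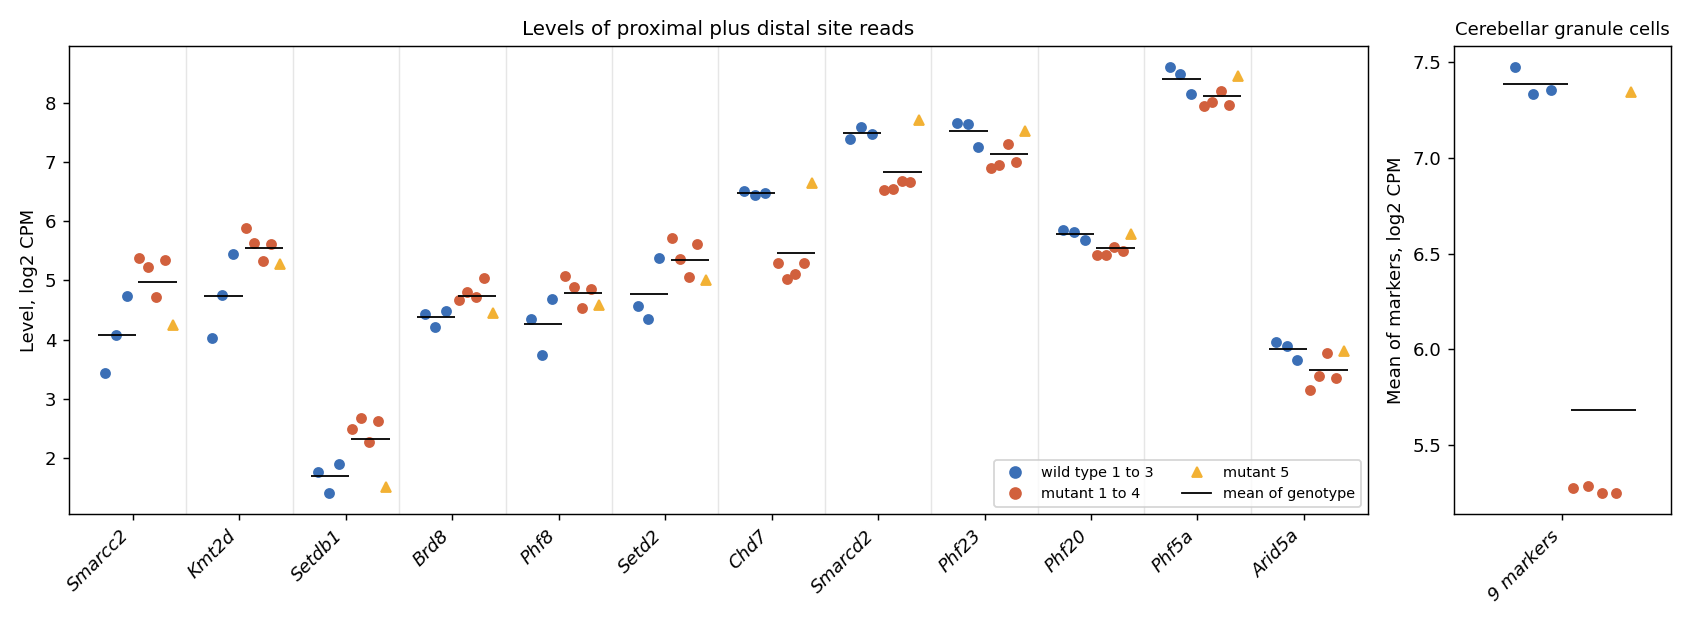
Level, as log2 CPM of proximal plus distal reads, in each library for the 6 chromatin genes per direction with the smallest p (left) and the mean of 9 cerebellar granule cell markers (right), with blue circles for wild type, red circles for mutants 1 to 4, a triangle for mutant 5 and lines for means, on axes that do not start at 0. Chd7 and Smarcd2 are at most 5.29 and 6.68 in mutants 1 to 4 and 6.64 and 7.71 in mutant 5, and the markers at most 5.28 and 7.35, respectively.

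The number of level differences at an unadjusted p under 0.05 rested on single libraries. In the first table it was 0 higher without wild type 1, 1 without wild type 2, 22 without wild type 3, 0 without mutant 1, 1 without mutant 2, 2 without mutant 4 and 15 without mutant 5. The number lower was 4 without wild type 3, 8 without mutant 5 and 0 without any one of mutants 1 to 4. In the second table there were 17 higher and 11 lower without wild type 3, 10 and 12 without mutant 5, 4 and 3 without mutant 3, 1 and 2 without wild type 1, 1 and 3 without wild type 2, 0 and 2 without mutant 1, 0 and 3 without mutant 2, and 1 and 3 without mutant 4. In both directions together, 14.3% of all genes in the first table were at this p with every library (7.89% of the chromatin genes), 4.34% without wild type 1 (1.32%), 32.9% without wild type 3 (34.2%) and 28.9% without mutant 5 (30.3%). In the second these shares were 15.1% of all genes (7.89%), 5.49% (3.95%), 32.6% (36.8%) and 29.4% (28.9%). Without wild type 2 and without mutants 1 to 4 in turn, they were 9.32% (2.63%), 6.43% (0%), 6.77% (1.32%), 11.7% (6.58%) and 7.52% (2.63%) in the first table. The same settings gave 9.62% (5.33%), 7.66% (2.63%), 8.21% (4%), 12.1% (9.21%) and 8.42% (5.33%) in the second. In the first table mutants 1 to 4 lay above every other library in 5 genes (Brd8, Brd9, Hdac2, Setdb1 and Smarce1; 7.2% of all) and below in 4 (Baz2b, Chd7, Phf20 and Smarcd2; 8.05% of all). In the second they lay above in Hdac2, Hdac9, Setdb1 and Smarce1 (7.75% of all) and below in Baz2b, Chd7, Chd9, Kat5 and Phf20 (8.57%).

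**Figure D5:**
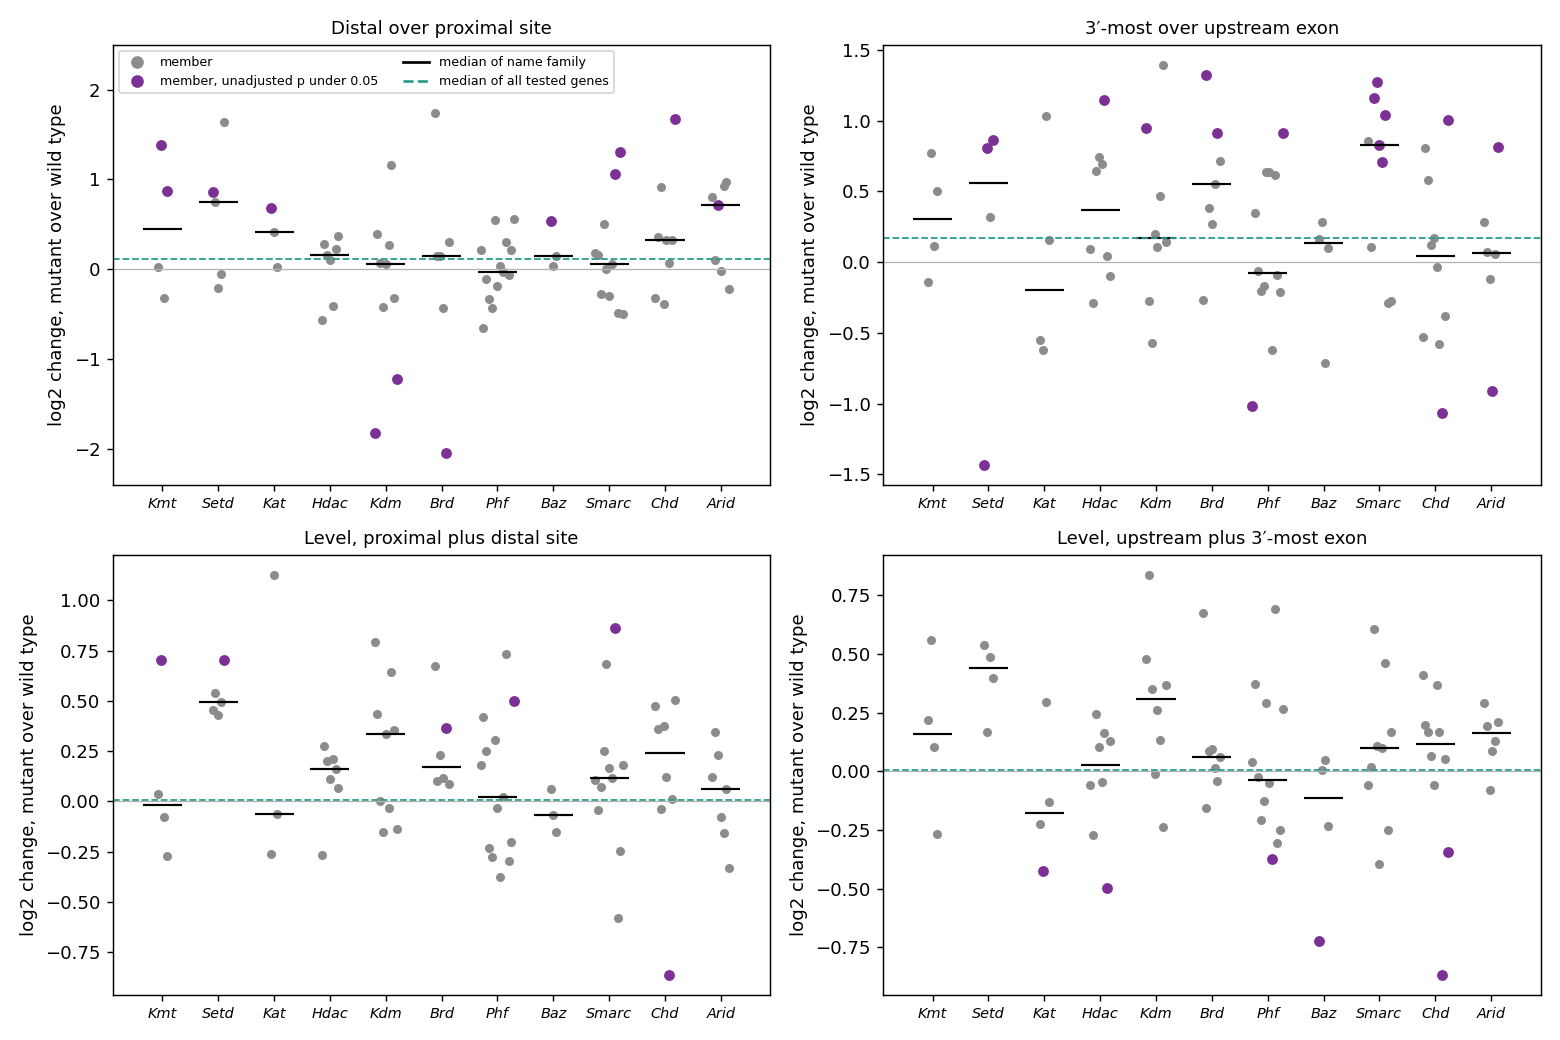
Log2 change of mutants over wild type for every tested chromatin gene (points, purple at an unadjusted p under 0.05) by name family, for the 2 kinds of site usage (top) and the 2 levels (bottom), with black bars for family medians and dashed lines for the median of all tested genes. Purple points lie on both sides of 0 in both usage panels. The Setd points of both level panels are all above 0, as are the Brd points for the level of proximal plus distal reads.

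By remodelling complex, 12 of 15 listed BAF and PBAF subunits were in each table. They had 3 genes higher and 0 lower at an unadjusted p under 0.05 for the distal share, 3 higher and 1 lower for the share of the 3′-most exon, 1 higher and 0 lower for level in the first table and 0 and 0 in the second. Over all genes these shares were 8.67% higher and 4.25% lower, 10.4% and 3.63%, 7.29% and 7.05%, and 7.6% and 7.47%. Median log2 changes were 0.131, 0.419, 0.117 and 0.0518, beside 0.115, 0.169, 0.00687 and 0.00636 over all genes. The ATPases of the complex did not reach an unadjusted p of 0.05. Smarca2 was at 29.5 ± 1.70% in wild-type and 31.8 ± 2.64% in mutant libraries distal and Smarca4 at 1.88 ± 0.158% in wild-type and 1.55 ± 0.499% in mutant libraries, and their levels were 7.61 ± 0.192 log2 CPM over wild-type and 7.57 ± 0.173 over mutant libraries and 6.75 ± 0.312 log2 CPM over wild-type and 6.83 ± 0.238 over mutant libraries, respectively. The 8 CHD helicases of the first table and all 10 of the second had 1 gene higher and 0 lower, and 1 higher and 1 lower, in the 2 kinds of usage.

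Genes behind neurodevelopmental disorders were read as a panel of 18, of which those not described above follow. The CHD helicase Chd8, an autism gene, was at 25.3 ± 5.13% in wild-type and 29.7 ± 3.30% in mutant libraries distal, with a level of 6.79 ± 0.129 log2 CPM over wild-type and 6.79 ± 0.191 over mutant libraries. Arid1a and Arid1b, alternative subunits of BAF, used the distal site to different degrees: Arid1a stood at 5.38 ± 3.28% in wild-type and 9.26 ± 4.91% in mutant libraries, and Arid1b at 69.1 ± 2.34% in wild-type and 70.5 ± 3.17% in mutant libraries. The acetyltransferases Kat6a and Kat6b differed in which table held them, with Kat6a at 97.7 ± 1.96% in wild-type and 99.1 ± 0.201% in mutant libraries for the 3′-most exon and Kat6b at 8.39 ± 3.94% in wild-type and 9.64 ± 2.36% in mutant libraries for the distal site. Kat6b had the widest spread of level in the panel, at 2.85, 3.39 and 4.98 log2 CPM in wild type 1 to 3 and 5.82, 5.43, 4.38, 5.59 and 3.30 in mutants 1 to 5. The libraries of both genotypes overlapped there. Kmt2a was at 31.6 ± 4.54% in wild-type and 31.8 ± 4.90% in mutant libraries distal, Kdm5c at 28.5 ± 1.25% in wild-type and 32.6 ± 3.67% in mutant libraries and Kdm6a at 53.5 ± 20.6% in wild-type and 72.6 ± 10.5% in mutant libraries. None of these reached an unadjusted p of 0.05.

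The gene with the most reads of each name family follows where not yet given. Kmt2e, a chromatin reader of the MLL family whose locus overlaps Srpk2, was at 42.9 ± 1.90% in wild-type and 37.6 ± 4.15% in mutant libraries distal. Chd3, a NuRD helicase with 3739 to 12922 reads per library, was at 35.7 ± 3.41% in wild-type and 37.7 ± 2.65% in mutant libraries for the 3′-most exon, with a level of 9.56 ± 0.445 log2 CPM over wild-type and 9.66 ± 0.169 over mutant libraries. Baz1b was at 81.3 ± 2.96% in wild-type and 84.1 ± 1.74% in mutant libraries for the 3′-most exon, and Brd2 had a level of 9.40 ± 0.239 log2 CPM over wild-type and 9.25 ± 0.217 over mutant libraries. Locus overlap with another coding gene in RefSeq (GRCm38.p6) was found for 18 of the 97 genes. The sources do not say whether counting used strand, and reads of both genes of such a pair cannot be told apart.

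Other chromatin genes were read from lists written by function. Over all genes, 8.67% were higher and 4.25% lower at an unadjusted p under 0.05 for the distal share. For the 3′-most exon these shares were 10.4% and 3.63%. Of the writers and cofactors of methylation (17 of 25 in the first table, 15 in the second), 2 were higher and 1 lower at an unadjusted p under 0.05 for the distal share and 1 and 1 for the 3′-most exon, with Nsd3, a histone methyltransferase, at 96.4 ± 0.306% distal in wild type and 94.4 ± 0.943% in mutants. Of 23 and 11 acetylation cofactors, 1 was higher and 2 lower, and 2 higher and 0 lower. Crebbp, the acetyltransferase of Rubinstein-Taybi syndrome, ended at the 3′-most exon in 45.2 ± 13.4% of wild-type and 60.4 ± 9.31% of mutant reads. Of 14 and 15 other remodellers, 0 were higher and 2 lower, and 2 and 2, with Atrx, an X-linked remodeller of heterochromatin, at 7.70 ± 1.29% and 4.81 ± 1.55% distal. For the distal share the median log2 change of these remodellers was -0.458, beside 0.115 over all genes. Only 28.6% of them lay above 0, beside 59.2% of all genes and 58.8 to 66.7% of the remaining lists. Of 15 and 11 Polycomb and heterochromatin genes, 2 were higher and 0 lower, and 2 and 1, among them Phc3, a PRC1 subunit, at 98.9 ± 0.157% and 99.4 ± 0.212% for the 3′-most exon. Of 6 and 7 DNA methylation genes, 1 was higher and 0 lower in both kinds of usage, with Tet3, a methylcytosine dioxygenase, at 17.7 ± 5.75% and 31.5 ± 9.61% distal and Uhrf2 at 83.0 ± 3.07% and 89.0 ± 1.22% for the 3′-most exon. None was called by edgeR, and the smallest adjusted p over these lists was 0.282.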

How the data were processed

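Reads at polyadenylation sites were counted in total brain of 3 wild-type and 5 mutant mice. The authors deposited whole-number counts per site in 2 tables, in mm9 coordinates, and STAR 2.5, HTSeq 0.6.0, FastQC 0.11.3 and the build mm9 are listed, without roles, in the submitters' processing notes. Site calling, filters and the strand used in counting are not given in the sources used here. The kit gives no molecular identifiers in these tables, so counts are reads, not molecules, and depth ran from 7075383 to 17530761 reads per library and table.

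From these counts, usage was tested with edgeR 4.0.16 in R 4.3.3 (glmQLFit and glmQLFTest) as the interaction of site and genotype with library as a block. For level, both sites were summed, scaled by TMM and tested for genotype. Genes needed a mean of 20 reads per library and 10 reads in all at each site, and p-values were adjusted over all tested genes by Benjamini and Hochberg at 0.05. SE is the log2 change divided by the root of F. Log2 CPM used the same TMM scaling and a prior count of 2. Alternatives were DESeq2 1.42.0, limma 3.58.1 (voom), other scalings and filters, the granule cell marker mean as a covariate, and each library left out. Replicate libraries differed beyond sampling noise (chi-square per degree of freedom 3.11 to 62.4), so none was counted as a duplicate. No label says that libraries of a genotype share a litter, and p-values measure the spread between these animals.

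On simulated data of the same size, edgeR recovered 18% of 2-fold and 86% of 4-fold differences in usage within the 3′-most exon. Between exons it recovered 17% and 80%. For level it recovered 71% and 100% in the first table and 88% and 99% in the second table. These rates apply to the simulated counts and need not hold for the measured ones. In the first table the 9 measured granule cell markers had a median log2 change in level of -0.957, with a lower quartile of -1.72. None of them was called, and their smallest adjusted p was 0.343 by edgeR. An absence of calls therefore does not limit the size of a difference.

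Log2 changes and tests are given for the 6 chromatin genes per direction with the smallest p in each comparison among those with a mean of at least 50 reads. Values are also given for the gene with the most reads in each of 11 name families, a panel of 18 neurodevelopmental disorder genes, up to 2 genes of each other chromatin list, and Cstf2. Other genes were named after their values were seen. Values of 1 gene of the panel are not reported here, though the counts include it. The chromatin genes and all lists were chosen with earlier results of these data known. All value columns were used (0 left out). No sequence is shown, since a genome of the files' build was not used here.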

Additional observations from a re-analysis of the deposited data

Results flagged for a closer look

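Among 162 groups of 5 mutant values examined, covering the named chromatin genes, 8 held a library whose gap to the nearest other mutant exceeded 0.71 of the range of the 5, and chance alone marks about 1 in 20 such groups. For levels the library was mutant 5 each time. Chd7 stood at 6.64 log2 CPM there in the first table (nearest mutant 5.29) and at 7.09 in the second (nearest 5.75), Smarcd2 at 7.71 (nearest 6.68) and Arid4a at 2.35 (nearest 2.93). Mutant 5 was also the one mutant with granule cell markers at the wild-type level, and their part in these values was not tested. For the share of the 3′-most exon, mutant 3 was low for Kmt2c at 94.5% (nearest 97.6%) and for Setd2 at 96.1% (nearest 98.3%). Mutant 1 was low for Phf23 at 99.5% (nearest 99.7%) and high for Smarca2 at 100% (nearest 99.8%), differences that rest on few upstream reads.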

How the results depend on the processing

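No paired analysis was possible because the labels carry no replicate numbers shared between genotypes. All counts are of chromatin genes at an unadjusted p under 0.05, higher and lower in mutants. Within the 3′-most exon (9 and 3) the stricter filter gave 1 lower, the granule cell marker covariate 0 and 1 with a median of 0.00512, and scaling each site column apart, chosen after seeing the data, 6 and 9 with a median of -0.0789. Between exons (14 and 4) DESeq2 gave 1 lower, the covariate 0 and 0 with a median of -0.0120 (0.168 without it), and scaling apart 11 and 6. For level in the first table (5 and 1) DESeq2 and limma voom gave 2 lower, the stricter filter 3 higher, and the covariate 1 and 2 with a median of 0.0599. In the second (0 and 6) DESeq2 gave 3 higher, limma voom 1 higher, and the covariate 3 lower with a median of 0.0482.

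With 1 library left out, counts within the exon ran from 3 to 15 higher and 0 to 5 lower (calls 0 to 0, median 0.0963 to 0.175). Between exons they ran from 4 to 19 and 0 to 5 (calls 0 to 5, median 0.104 to 0.299), for level from 0 to 22 and 0 to 8 (calls 0 to 2, median 0.0858 to 0.171) in the first table and from 0 to 17 and 2 to 12 (calls 0 to 1, median 0.0240 to 0.112) in the second. The highest number of calls between exons and for both levels came without mutant 5, and 6 named results passed an adjusted p of 0.05 with edgeR there. DESeq2, limma voom, the other normalization and the unfiltered table turned the sign of 0 of 48 named results.

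The covariate turned 15 of 48, and the cause was not tested. Usage within the exon became 0.0226 for Kdm3a and 0.0959 for Smarcd2, and between exons 0.0253 for Phf10 and 0.132 for Chd7. Level in the first table became -0.205 for Setdb1, 0.191 for Chd7, 0.239 for Smarcd2, 3.23e-05 for Phf23, 0.0114 for Phf20 and 0.0450 for Phf5a. In the second it became -0.176 for Kdm3a, -0.120 for Brd1, -0.318 for Smarcad1, 0.188 for Chd7 and 0.0277 for Phf5a. The marker mean shares much of its variance with genotype (r squared 0.611, variance inflation 2.57), so genotype and marker content can hardly be told apart with 8 libraries. Depth limits shares near 0 or 100%, which rest on few reads at the minor site.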
